A study of Mus musculus with 36 samples.

Results

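The genes described are those of the cytoplasmic ribosomal proteins, taken as every gene whose symbol begins with Rpl or Rps and a digit, without the Rps6 kinase genes and pseudogenes. Each gene was read at its brightest probe set among those annotated to 1 symbol, which gave 47 genes (24 Rpl and 23 Rps symbols) of 18194 genes on the array. Their expression was measured on 36 Affymetrix arrays of mammary glands from female C57BL/6 mouse fetuses at E19, where the ductal epithelium and the peri-ductal stroma of a gland were captured separately by laser. Dams carried osmotic pumps from E8 that delivered bisphenol A (BPA, an estrogen-like plastic monomer) at 250 ng/kg a day, EE2, the steroidal estrogen ethinylestradiol, at 10 ng/kg a day, or the vehicle alone, and all dams were heterozygous for the estrogen receptor α gene. Their fetuses were either ERKO (ERα-/-, null in every tissue) or wild type (ERα+/+), so that 12 groups of 3 arrays each resulted: ERKO and wild type fetuses exposed to BPA, EE2 or vehicle, as stroma and as epithelium. Each group came from 3 litters, a litter could give a fetus of each genotype, and a gland gave both of its compartments, which makes 18 glands.

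Ribosomal proteins assemble with ribosomal RNA into the large (Rpl) and small (Rps) subunits of the ribosome, and their mRNAs are among the most abundant of any growing cell. Many of these mRNAs begin with a C followed by a run of pyrimidines, the 5′ terminal oligopyrimidine (TOP) tract, through which the mTOR pathway and Larp1 set their translation. Several members have a paralog of narrower expression, such as Rpl3l, the form of striated muscle, and Rpl39l, the form of male germ cells. The symbol Rps19bp1 also met the naming rule, although it belongs to a binding partner of Rps19 and not to a ribosomal protein.

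The start sites of members are shown because the TOP tract is the feature of these mRNAs by which the family is known. RefSeq promoters (build GRCm38.p6) were found for 41 of the 47 genes, and 7 of these 41 had an annotated start at a C with at least 5 pyrimidines in a row (17.1%, against 3.01% of 27025 genes). The window of each of the 7 holds 10 bases before the annotated start and 20 from it on, with the start base and the pyrimidines that follow it in capitals.
Rps10 (chr17:27635225-27635254, minus strand): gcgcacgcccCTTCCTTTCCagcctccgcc
Rpl38 (chr11:114668570-114668599, plus strand): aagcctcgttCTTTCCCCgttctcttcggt
Rpl35 (chr2:39005112-39005141, minus strand): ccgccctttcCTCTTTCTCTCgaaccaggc
Rps6 (chr4:86857348-86857377, minus strand): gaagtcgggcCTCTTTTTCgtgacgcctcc
Rps18 (chr17:33955646-33955675, minus strand): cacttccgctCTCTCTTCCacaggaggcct
Rpl14 (chr9:120571507-120571536, plus strand): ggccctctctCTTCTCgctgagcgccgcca
Rps27 (chr3:90213629-90213658, minus strand): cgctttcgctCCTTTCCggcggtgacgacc

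The longest of these 7 runs was the 11 pyrimidines of Rpl35. In Rpl27a, Rpl7a and Rps24 the annotated start was a T that opened a run of at least 5 pyrimidines, so the count depends on the annotated base.
Rpl27a (chr7:109519185-109519214, plus strand): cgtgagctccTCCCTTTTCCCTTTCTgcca
Rpl7a (chr2:26910797-26910826, plus strand): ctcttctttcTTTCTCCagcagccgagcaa
Rpl7l1, 1 of the 4 members called between compartments, had a start C with a purine directly after it.
Rpl7l1 (chr17:46782637-46782666, minus strand): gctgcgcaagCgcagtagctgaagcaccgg
Over the whole promoters, from 250 bases before to 50 after the start, the letters CCGGAAG of the ETS factor GABP stood on either strand in 19 of the 41 genes (46.3%, against 9.93% of all genes). The letters ATGGCG of YY1 stood in 16 (39.0%, against 10.2%), GGGCGG of SP1 in 23 (56.1%, against 38.2%), and the TATA box letters TATAAA in 5 (12.2%, against 15.7%). These shares were not adjusted for base composition, and the median GC content was 56.7% over the members' promoters and 52.7% over all promoters.

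Most members were among the brightest probe sets of every array. Of the 47 genes, 34 had a mean deposited intensity of at least 1000 (72.3%, against 5.35% of all 45101 probe sets), and 24 of these had a mean of at least 5000. The shares are not like for like, since members were read at their brightest probe set and the 5.35% covers every probe set. The 8 with the highest means were Rpl13a at 13268, Rps29 at 12348, Rps9 at 12333, Rpl38 at 11126, Rps28 at 10662, Rps20 at 10274, Rps3 at 9877 and Rpl35 at 9048. These are intensities of single probe sets, which bind with unequal strength, so the order does not rank the mRNAs. The top signal of an array lay between 22558 and 25770 on all 36 arrays.

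The 8 dimmest members were Rps19bp1 at a mean of 296, Rpl39 at 214, Rps4l at 122, Rpl39l at 41.1, Rps27 at 29.3, Rpl37 at 11.7, Rpl3l at 7.89 and Rps16 at 1.32. They included the paralogs Rpl3l, Rpl39l and Rps4l beside members such as Rps16, Rps27 and Rpl37 that every ribosome holds. For Rps16, Rps27 and Rpl37 the value is that of the 1 probe set annotated to the symbol alone. Another 30 symbols of the same naming stood only on probe sets annotated to several symbols, of which 109 named a symbol of the family, and they are not among the 47 genes. Where a gene had several probe sets, these could differ widely: those of Rps3 averaged between 8.59 and 9877, and those of Rps9 between 125 and 12333.

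**Figure D1:**
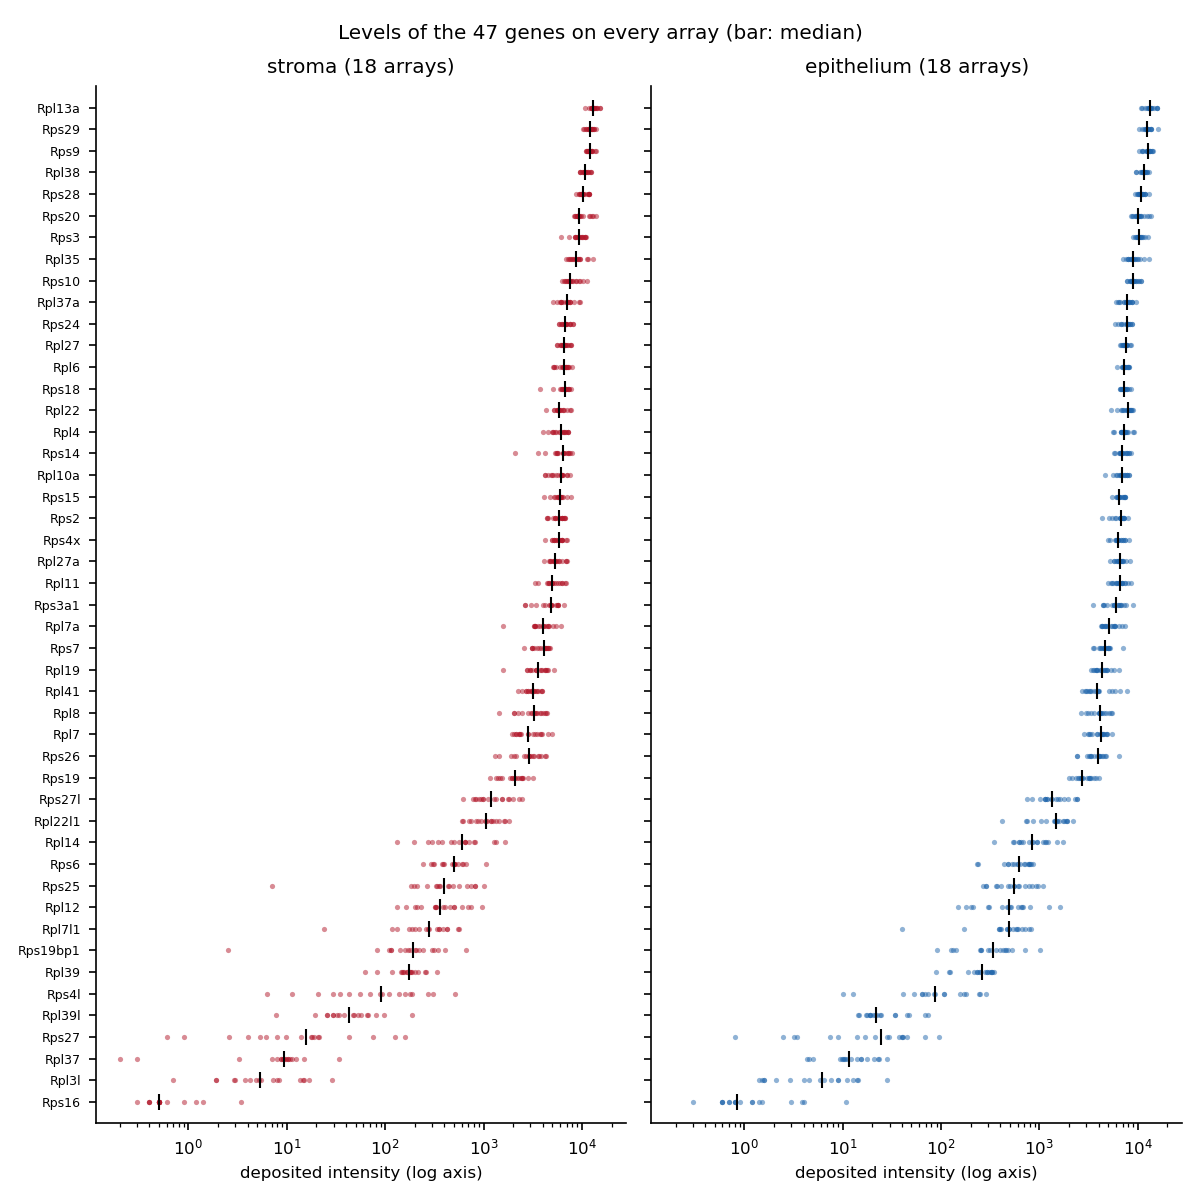
Deposited intensity of each of the 47 genes on every array (log axis), with 18 stroma arrays left and 18 epithelium arrays right, genes ordered by their mean and the black bar marking the median of the compartment. The 34 genes with a mean of at least 1000 form narrow bands, while the 13 dimmer genes spread widely and include single low arrays such as 7.1 for Rps25 in stroma.

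Members varied less between replicate arrays than most of the array did. The SD of log2 levels within groups of 3 had a median of 0.32 over the 47 genes, and 0.22 over the 34 bright ones. It was 0.52 over the other probe sets with a mean of at least 1000 and 1.28 over all probe sets. The levels were not matched: the median mean was 6446 over the 34 bright members and 1881 over those other probe sets. The 13 elongation factors and other TOP mRNAs had a median SD of 0.39, and 4 ribosomal proteins named outside the rule 0.34. The lowest SD of a member was the 0.10 of Rps9, with 11039 to 13844 in stroma and 10307 to 14273 in epithelium. The highest was the 2.04 of Rps27, whose probe set ran between 0.6 and 159.0 in stroma and between 0.8 and 94.9 in epithelium. Across members the SD fell with the level (Spearman's rho -0.93 over 47 genes, which share the same arrays).

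The first comparison asked how the compartments of a gland differ. Same-numbered stroma and epithelium arrays of a group were taken as 1 gland, which the labels do not state. Members were slightly lower in stroma than in epithelium as deposited: 45 of the 47 differences lay below 0, with a median of -0.27 on the log2 scale, and the median over all probe sets was -0.35. By limma with the gland as a block, and with p-values adjusted by Benjamini-Hochberg across the array, 4 members were called lower in stroma at an adjusted p under 0.05 (8.5% of the 47) and 0 were called higher, against 16.8% of all probe sets lower and 4.51% higher. At an unadjusted p under 0.05 there were 15 members lower and 1 higher, 34.0% of the members together and 34.2% of all probe sets. The members' share of calls was thus no larger than that of the array as a whole. The arrays are of captured tissue, in which fewer cells of a type and less RNA per cell cannot be told apart.

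Rps19, a small subunit protein known for its mutation in Diamond-Blackfan anemia, was lower in stroma in 18 of 18 glands. Its intensity ran between 1160 and 3199 with a median of 2069 in stroma, and between 2012 and 4071 with a median of 2742 in epithelium. The ranges overlapped, and the difference lay within each pair of arrays taken as a gland. The log2 difference was -0.52 ± 0.16 (SE, n = 18 glands, limma with Benjamini-Hochberg adjustment, adjusted p = 0.0223). It remained called when any single array was left out, with an adjusted p of up to 0.0402, and without the gland block, with 0.0279. It was not called with quantile normalization (-0.34, adjusted p = 0.0899) or with arrays centred on their median (-0.11, adjusted p = 0.745).

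Rpl7l1, the paralog of Rpl7 with a role in ribosome assembly, was lower in stroma in 15 of 18 glands. It ran between 23.7 and 567 with a median of 276 in stroma, and between 39.8 and 812 with a median of 492 in epithelium. The lowest array of either compartment came from the wild type vehicle gland of replicate 2. The difference was -0.83 ± 0.24 (SE, n = 18 glands, limma, adjusted p = 0.0157), and it too remained called without any single array, with an adjusted p of up to 0.0318, and without the block, with 0.0485. Quantile normalization (-0.49, adjusted p = 0.123) and centring on the array median (-0.42, adjusted p = 0.231) ended this call as well.

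Rpl7, a large subunit protein, had a median of 2820 (1954 to 4923) in stroma and 4254 (2812 to 5472) in epithelium, with a difference of -0.49 ± 0.17 (SE, n = 18 glands, limma, adjusted p = 0.0436). The fourth call, Rps16 with -0.98 ± 0.34 (limma, adjusted p = 0.0450), rests on a probe set with medians of 0.5 in stroma and 0.85 in epithelium, and with a floor of 10 its difference was -0.0069. Rpl7 and Rps16 were each called in 8 of the 36 fits that left out 1 array. Just outside the threshold stood Rpl14 at -0.65, Rps26 at -0.45 and Rpl7a at -0.43, with adjusted p-values of 0.0644, 0.0668 and 0.0676 by limma.

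Rpl39l was the member with the largest positive difference, +0.68 ± 0.29 (SE, n = 18 glands, limma, adjusted p = 0.0929, not called). It had a median of 42.4 (7.7 to 187) in stroma and 21.8 (14.3 to 74.3) in epithelium, and stroma was the lower in 6 of 18 glands. It was called higher without the wild type vehicle gland of replicate 2 (+0.79, adjusted p = 0.0446 by limma) and without the wild type BPA gland of replicate 1, in which the count of higher members became 1. Its parent Rpl39 differed the other way, by -0.51 ± 0.22 (limma, adjusted p = 0.101). Rpl3l, the striated muscle paralog, had 0.7 to 28.7 in stroma and 1.4 to 28.1 in epithelium and a difference of +0.09 ± 0.37 (limma, adjusted p = 0.893). In the 3 stroma arrays with the highest summed skeletal muscle markers (30427 to 41878, against a stroma median of 411) Rpl3l stood at 5.2, 5.5 and 14.6, inside the range of the others. Of the remaining paralogs, Rps4l differed by -0.14, Rpl22l1 by -0.31 and Rps27l by -0.18, and none was called.

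Rpl19 served the study as the reference gene of its RT-qPCR. It ran between 1592 and 5233 with a median of 3580 in stroma, and between 3364 and 6471 with a median of 4359 in epithelium. It was lower in stroma in 17 of 18 glands, with a difference of -0.32 ± 0.16 (SE, n = 18 glands, limma, adjusted p = 0.154). That difference did not pass the main test, but it was called lower in 4 of 11 alternatives. These were a trended and robust prior variance (limma, adjusted p = 0.00899), a floor of 10 (0.00819), 16 added to every value (0.0191) and a mean of at least 50 (0.0454). It was not called with quantile normalization (-0.17, adjusted p = 0.419), and with arrays centred on their median it was +0.0919 (adjusted p = 0.775).

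**Figure D2:**
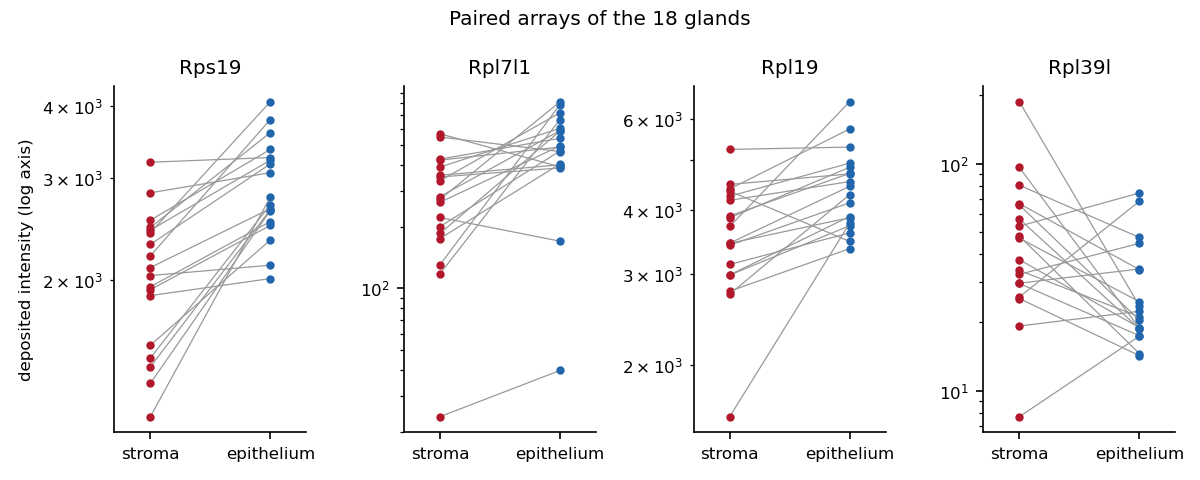
Deposited intensity (log axis) of Rps19, Rpl7l1, Rpl19 and Rpl39l, with a line joining the stroma array (left, red) and the epithelium array (right, blue) of each of the 18 glands. Rps19 was lower in stroma in 18 glands, Rpl19 in 17, Rpl7l1 in 15 and Rpl39l in 6.

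With genes read at their brightest probe set, the difference was nearer to 0 in brighter members. It had a median of -0.17 over the 24 members with a mean of at least 5000, -0.38 over the 10 members between 1000 and 5000, and -0.51 over the 13 dimmer members. The other probe sets of the same levels had medians of -0.12, -0.31 and -0.36. The SEs of limma draw on a variance shared with all probe sets, so for steady genes they do not measure the spread over glands alone. At the top, Rpl13a differed by -0.03 ± 0.15 and Rps9 by -0.06 ± 0.14 (SE from limma, n = 18 glands). These values are those of the brightest probe set alone: over the mean of a gene's probe sets Rps9 differed by -0.51 (limma, adjusted p = 0.0436) and Rpl13a by -0.29, and at the brightest probe set without the suffix _x_at or _s_at by -0.93 and -0.42, not called. Rps20, Rps3, Rps10 and Rpl22 were also called lower over the mean of a gene's probe sets. Without those suffixes Rps20 and Rpl41 were called lower, though not in the main fit. Of the 47 probe sets used, 14 had the suffix _x_at and 1 had _s_at, so the nearness to 0 depends on the probe set. Across all 47 members the difference had a Spearman's rho of 0.60 and a Pearson's r of 0.33 with the log2 level, and across the 34 bright members these were 0.83 and 0.67, over genes that share the same arrays. The median was -0.31 over the 24 Rpl symbols and -0.19 over the 23 Rps symbols.

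**Figure D3:**
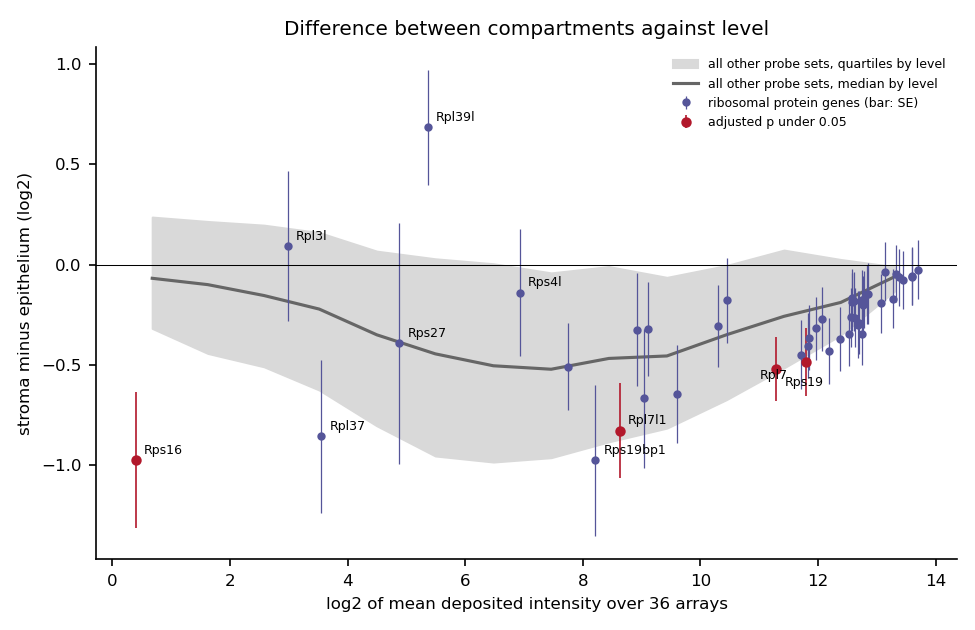
Stroma minus epithelium (log2, bars are SE from limma) against the log2 of the mean intensity for the 47 genes, with the 4 called genes in red, over the median and quartiles of all other probe sets by level in grey. Read at their brightest probe set, the brightest genes lie near 0, and the others mostly lie below 0 as the grey median does. Over the mean of a gene's probe sets, Rps9, Rps20 and Rps3 among the brightest genes were called lower.

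Whether members count as lower in stroma depended on how arrays were scaled. The median intensity of the 47 genes on an array lay between 2681 and 6536 in stroma and between 4437 and 7398 in epithelium, and it was lower in stroma in 17 of 18 glands. Set against the median of the whole array, it averaged 7.33 ± 0.37 log2 units above it in stroma and 7.30 ± 0.56 in epithelium (SD, n = 18 each) and was lower in stroma in 8 of 18 glands. The share of the summed intensity of an array was 2.02% ± 0.17 in stroma and 1.98% ± 0.21 in epithelium (SD, n = 18 each), and it too was lower in stroma in 8 of 18 glands. With arrays centred on their median, the median difference of the members became +0.14, and with quantile normalization it was -0.14. In both of these fits 0 members were called lower and Rpl39l was called higher, with adjusted p-values of 0.00911 and 0.0101 by limma.

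The count also changed with the variance prior, the treatment of low values and the filter on dim probe sets. With a trended and robust prior variance 23 members were called lower (48.9%, against 18.6% of all probe sets), with a floor of 10 there were 25 (53.2%, against 19.4%), with 16 added to every value 17 (36.2%, against 20.2%), and with probe sets of a mean of at least 50 alone 14 of 42 (33.3%, against 33.5%). The members' median difference lay between -0.27 and -0.20 in these fits. Rps19, Rpl7l1 and Rpl7 were called in each of the 4, and Rps16 in none, with a difference of -0.0847 with 16 added and too dim a mean to enter the filtered fit.

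Genes that assemble ribosomes had a larger median difference than the ribosomal proteins, and whether the lists differ was not tested. The list of 53 ribosome biogenesis genes, chosen like the other lists with earlier results of these data known, had 28 members lower in stroma and 0 higher, with a median of -0.78, against 16.8% of all probe sets lower, 4.51% higher and a median of -0.35. Dkc1, the pseudouridine synthase of small nucleolar RNPs, averaged 359 ± 192 in stroma and 910 ± 515 in epithelium (SD, n = 18 each) and differed by -1.33 ± 0.23 (SE, limma, adjusted p = 4.48e-04). Fbl, the rRNA methyltransferase fibrillarin, differed by -1.22 ± 0.26 (limma, adjusted p = 0.00203), and Polr1b, a subunit of RNA polymerase I, by -1.69 ± 0.32 (limma, adjusted p = 7.83e-04). The list had 17 lower calls with quantile normalization (8.13% of all probe sets lower) and 7 with arrays centred on their median (6.42%), and 0 higher in both. Its median mean intensity was 430, and that of the 47 ribosomal protein genes was 5308. Probe sets outside the members in the log2 level bin that holds 430 had a median of -0.47, so the -0.35 is not matched for level.

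The other lists of the translation machinery are read against the same 16.8% of all probe sets lower and median of -0.35. These values are not matched for level. Probe sets outside the members, binned by 1 log2 unit of their mean, had medians that changed with level. In the bin of each list's median mean, the median was -0.19 for the 4 ribosomal proteins below and -0.26 for elongation factors. It was -0.46 for initiation factors, -0.52 for kinases and regulators and -0.47 for mitochondrial ribosomal proteins. Of 4 ribosomal proteins named outside the rule (Rplp0, Rplp2, Rpsa and Fau), 0 were called, with a median of -0.27. Of 13 elongation factors and other TOP mRNAs 3 were lower (Eif3h, Eif4b and Eef1e1) and 0 higher, with a median of -0.42. Of 29 initiation factors 5 were lower and 1 higher, with a median of -0.48, and the gene higher in stroma was Eif4ebp1, the mTOR-controlled repressor of Eif4e, by +0.61 ± 0.20 (SE, limma, adjusted p = 0.0310). Of 14 kinases and regulators 4 were lower, among them Larp1 by -0.92 ± 0.23 (adjusted p = 0.00775), Myc, which drives ribosome synthesis, by -1.35 ± 0.23 (adjusted p = 3.04e-04) and the kinase gene Rps6ka6 by -3.35 ± 0.35 (SE, limma, adjusted p = 1.07e-06). Of 76 mitochondrial ribosomal proteins 7 were lower and 0 higher, a smaller share than that of all probe sets, with a median of -0.28. With arrays centred on their median the initiation factors and the elongation list had 0 lower calls, the kinases and regulators 2 and the mitochondrial list 1.

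The labels of the compartments held in the direction of their markers, although epithelium arrays also carried signal of stromal markers. The summed fibroblast markers had a median of 60552 in stroma and 29862 in epithelium. All 14 epithelium markers were lower in stroma, where their summed intensity ran between 580 and 4924, against 10322 to 21122 in epithelium, and 11 of 12 fibroblast markers were higher, with sums of 43024 to 69644 in stroma and 14195 to 45754 in epithelium. Most markers of adipocytes, endothelium and leukocytes were also called higher in stroma. Of all probe sets 4.51% were called higher and 16.8% lower. For adipocytes the higher markers were 7 of 7, with sums of 14643 to 40597 in stroma and 2496 to 37139 in epithelium. For endothelium they were 8 of 8 (940.4 to 6931 in stroma, 78.9 to 4466 in epithelium) and for leukocytes 6 of 8 (9478 to 24281 in stroma, 1108 to 6455 in epithelium). Fewer were higher for erythroid cells (2 of 5), smooth muscle (2 of 5), skeletal muscle (1 of 14) and keratinised epidermis (0 of 7). Of 3 Schwann cell markers 1 was higher and 1 lower, with sums of 49.4 to 1352.5 in stroma and 1076 to 2855 in epithelium. The part of these cells in the members' differences was not tested. The Gapdh 3′ to 5′ signal ratio, which rises with degraded or truncated RNA, was 11.9 ± 3.58 in stroma and 8.60 ± 2.5 in epithelium (SD, n = 18 each). Its lowest value was 6.01 in stroma and 5.09 in epithelium. Both lie above the upper limit that the paper states for its housekeeping genes and reads as a sign of intact RNA. Which genes and values that limit rests on is not given. The part of this ratio in the members' differences was not tested either. The compartment difference of members did not pass the test for a change with genotype: 0 of 47 were called (and 0 of all probe sets), 0 had an unadjusted p under 0.05 (5.14% of all probe sets), and the lowest adjusted p by limma was 0.959.

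The second set of comparisons asked for effects of BPA and EE2 in stroma. No member was called in either direction, and 0% of all probe sets were. BPA minus vehicle had a median of 0.03 over the members and 0.16 over all probe sets, with 26 members above 0 and 21 below. EE2 minus vehicle had a median of -0.03 over the members and 0.00 over all probe sets. The median SE of a member was 0.37, so that differences of this size, and larger ones too, could not be told from the spread. At an unadjusted p under 0.05 there were 0 members for BPA (4.54% of all probe sets) and 1 for EE2 (4.51%).

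That member was Rps4l, a paralog of Rps4x. It had a median of 168 (29.5 to 516) under EE2, 124 (20.8 to 273) under BPA and 38.7 (6.3 to 89.2) under vehicle in stroma, with overlapping ranges of 6 arrays each. The differences were +2.36 ± 0.84 for EE2 and +1.73 ± 0.84 for BPA (SE, limma), with adjusted p-values of 0.996 and 0.993. In epithelium Rps4l had medians of 75.05 under EE2, 131 under BPA and 80.2 under vehicle. The next smallest p-values of positive differences were those of Rps19bp1 (+1.17) and Rpl8 (+0.42) under BPA and of Rpl8 (+0.48) and Rps25 (+0.71) under EE2. Among negative differences they were those of Rpl3l by -1.20, Rps16 by -0.72 and Rps27l by -0.58 under BPA, and Rps27l by -0.71, Rps16 by -0.74 and Rpl14 by -0.76 under EE2, none of which passed the test.

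In epithelium the members' median was above 0 under both compounds and, as deposited, below that of the array as a whole. BPA minus vehicle had a median of 0.23 with 42 of 47 members above 0, against a median of 0.68 and 84.3% above 0 over all probe sets. EE2 minus vehicle had a median of 0.09 with 39 members above 0, against 0.40 and 73.3%. With arrays centred on their median these medians became -0.67 for BPA and -0.44 for EE2, so the direction rests on the scaling. The distance to the array rests on it too: the members' median minus that of all probe sets was -0.45 for BPA and -0.30 for EE2 as deposited, and +0.0494 and +0.0637 with quantile normalization. No member was called in either comparison (0% of all probe sets for BPA, 0.00222% for EE2), and at an unadjusted p under 0.05 there were 2 members for BPA (17.7% of all probe sets) and 1 for EE2 (8.88%). The array median itself averaged 51.4 ± 12.7 under BPA, 40.7 ± 14.7 under EE2 and 29.3 ± 12.05 under vehicle (SD, n = 6 each). The Gapdh 3′ to 5′ ratio averaged 7.19 ± 1.61 under BPA, 7.99 ± 2.8 under EE2 and 10.6 ± 1.77 under vehicle. Markers of endothelium, adipocytes and leukocytes mostly lay above 0 in the same comparisons, with none called by limma. For BPA these were 8 of 8 endothelium markers (median +2.39), 7 of 7 adipocyte markers (+1.81) and 7 of 8 leukocyte markers (+1.28). For EE2 they were 8 of 8 (+1.25), 7 of 7 (+1.02) and 7 of 8 (+1.07). The part of brightness, RNA quality and these cells in the members' differences was not tested.

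Rpl7l1 had the smallest p in epithelium under both compounds. It had a median of 594 (465 to 786) under BPA, 538 (391 to 812) under EE2 and 393 (39.8 to 539) under vehicle, with the low vehicle value again from wild type replicate 2. The differences were +1.24 ± 0.49 for BPA and +1.09 ± 0.49 for EE2 (SE, limma, adjusted p = 0.239 and 0.549), and without that array +0.77 and +0.62. Rpl7l1 was among the members whose level rose most steeply with the array median. That median averaged 51.4 under BPA and 40.7 under EE2, against 29.3 under vehicle, and its part in these differences was not tested. Rps6, the substrate of the S6 kinases, had a median of 737 (612 to 801) under BPA, 613 (479 to 861) under EE2 and 458 (231 to 779) under vehicle, with differences of +0.82 ± 0.36 and +0.65 ± 0.36 (SE, limma, adjusted p = 0.262 and 0.593), of which that for BPA was -0.0805 with arrays centred on their median. Rps27 followed with +1.97 and +1.91 at a probe set of 0.8 to 94.9, which without single arrays ran between +1.11 and +2.83 for BPA and between +1.05 and +2.77 for EE2. The ranges of exposed and vehicle arrays overlapped for all 3. Few members lay below 0, and the smallest p-values among them were those of Rpl13a (-0.09), Rpl41 (-0.10) and Rps20 (-0.04) under BPA and of Rpl39l (-0.25), Rps20 (-0.11) and Rpl3l (-0.26) under EE2.

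Rpl19 in epithelium had a median of 4878 (3767 to 6471) under BPA, 4487 (3608 to 5731) under EE2 and 3793 (3364 to 4279) under vehicle. Its differences were +0.39 ± 0.28 for BPA and +0.26 ± 0.28 for EE2 (SE, limma, adjusted p = 0.435 and 0.783). With arrays centred on their median they were -0.51 and -0.28. In stroma, as deposited, they were +0.19 ± 0.39 and +0.23 ± 0.39. None passed the test, and the intervals these errors give are wide enough to hold differences of either sign.

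The third set asked for the effect of ERα. ERKO minus wild type had a median of -0.01 over the members in stroma, against 0.14 over all probe sets, and of 0.04 in epithelium, against 0.38. No member was called in either compartment (0.00222% of all probe sets higher in stroma, 0% in epithelium). Esr1, the targeted gene, had medians of 37.6 in ERKO stroma and 114.5 in wild type stroma, and of 23.1 in ERKO epithelium and 36.3 in wild type epithelium, with overlapping ranges, and whether its probe set lies in the deleted part is not given in the sources used here.

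Rps25, a small subunit protein used by viral internal ribosome entry, was the only member with an unadjusted p under 0.05 between genotypes, in stroma (3.82% of all probe sets there, and 8.19% in epithelium with 0 members). It had a median of 566 (340 to 1005) in ERKO stroma and 268 (7.1 to 680) in wild type stroma (n = 9 each), a difference of +1.44 ± 0.67 (SE, limma, adjusted p = 1.00). Without the wild type vehicle array of replicate 2, which gave the 7.1, the difference was +0.81. In epithelium Rps25 differed by +0.52 ± 0.31 (limma, adjusted p = 0.652). Behind it stood Rpl3l at +0.85 and Rpl7l1 at +0.68 in stroma and Rpl7l1 at +0.59 and Rpl3l at +0.75 in epithelium, and on the negative side Rpl37 at -1.16, Rpl12 at -0.36 and Rpl35 at -0.15 in stroma and Rpl41 at -0.24, Rps27 at -0.55 and Rpl37 at -0.21 in epithelium. Tests of whether the BPA or EE2 effect differed between ERKO and wild type called 0 members in either compartment (0% of all probe sets), with 0 members at an unadjusted p under 0.05 in any of these 4 tests (for BPA 3.68% of all probe sets in stroma and 3.47% in epithelium, for EE2 3.99% and 6.01%). The smallest p was that of Rpl7l1 for EE2 in stroma, where the effect was lower in ERKO by 2.20 ± 1.21 on the log2 scale (SE, limma, adjusted p = 1.00) and the wild type vehicle group holds the 23.7 of replicate 2.

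**Figure D4:**
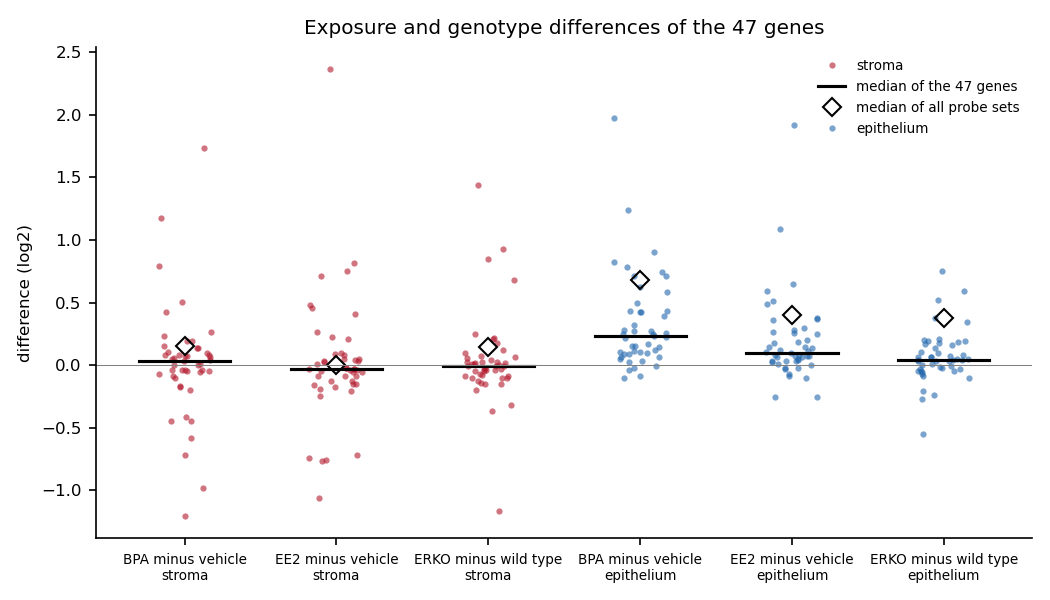
Log2 differences of the 47 genes (points) for BPA, EE2 and ERKO against their controls, in stroma (red) and epithelium (blue), with the median of the genes as a bar and the median of all probe sets as a diamond. As deposited, in epithelium the diamonds lie at 0.68, 0.40 and 0.38 and the bars at 0.23, 0.09 and 0.04, and no gene was called. With quantile normalization the members' median minus that of all probe sets was +0.0494, +0.0637 and +0.0196 there.

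The brightness of the array moved with the members less than with most probe sets. When the log2 level of a gene was regressed on the log2 median of the array, the slope had a median of 0.14 over the members. It was 0.27 over the other probe sets with a mean of at least 1000, and 0.75 over all probe sets. These comparisons are not at equal level: the median mean was 6446 over the 34 bright members and 1881 over those other probe sets. Across members the slope fell with the level (Spearman's rho -0.59). The 13 elongation factors and other TOP mRNAs had a median slope of 0.16, near that of the members. The steepest members were the dim Rps4l (1.5), Rps19bp1 (1.31) and Rpl7l1 (1.11), and the lowest slopes were those of Rpl37 (-0.36), Rpl41 (-0.29) and Rps20 (-0.17). The median level of the members rose with the array median (Pearson's r 0.70 over 18 stroma arrays and 0.64 over 18 epithelium arrays). Their share of the summed intensity fell with it (r -0.86 in both), between 2.48% on the dimmest epithelium array and 1.65% on the brightest. Both quantities come from the same array, so the correlations are a description.

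**Figure D5:**
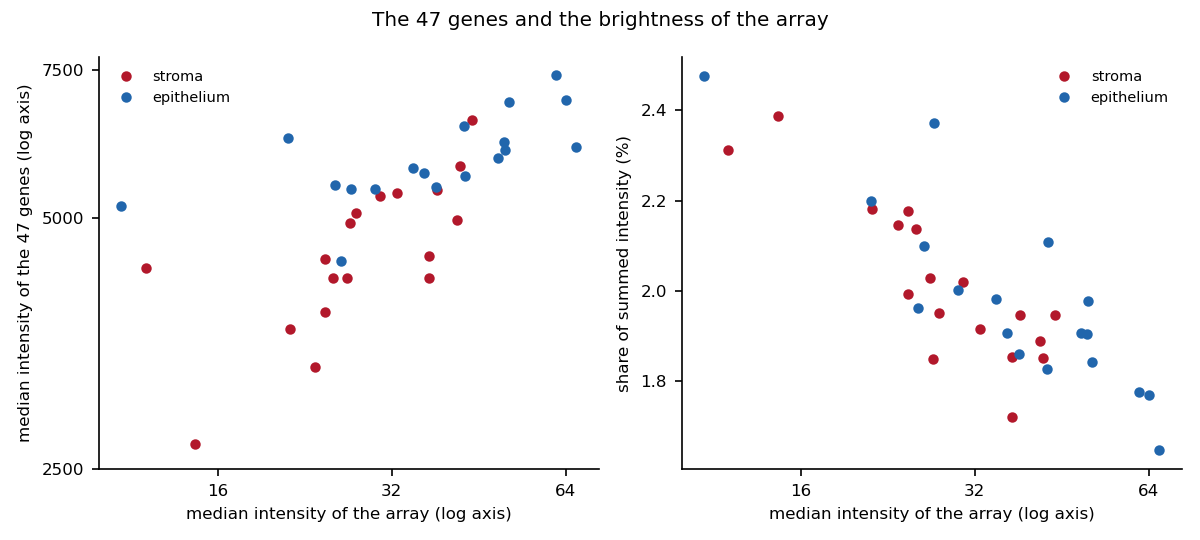
Median intensity of the 47 genes (left, log axis) and their share of the summed intensity (right, percent) against the median intensity of the array (log axis), each point 1 array, stroma in red and epithelium in blue. The share falls from the dim to the bright arrays in both compartments, between 2.48% and 1.65%.

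With each array's median subtracted, most members and abundant housekeeping genes had similar profiles over the arrays. Over the 36 arrays, 28 of the 47 members had a Spearman's rho of at least 0.8 with the mean of the other members, with Rpl27 (0.97) and Rps24 (0.97) highest and Rps4l (-0.17), Rps19bp1 (0.03) and Rpl7l1 (0.14) lowest. Outside the family the 10 genes most like the members' mean were Vdac1 (rho 0.96), Ndufa5, Pebp1, Pabpn1, Ran, Gapdh, Actb, Txn1, Actg1 and Oaz1 (0.94), and 1.56% of 18147 other genes had a rho of at least 0.8. The members' mean itself had a rho of -0.91 with the array median, which all of these points share. Genes that change little between arrays become alike once that median is subtracted, and the 34 bright members had a median slope of 0.11 on it. These values therefore do not show that members were regulated together. The 1.56% covers genes of every level and is not matched to the members' brightness.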

How the data were processed

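Total RNA of laser-captured stroma and epithelium was amplified (Ovation Pico WTA) and hybridised to Affymetrix Mouse 430 2.0 arrays. Per the labels, the authors processed the arrays with GCOS, and the deposited values are linear signal intensities, 1 column per array. The methods state RMA normalization of the array files for the study's own analysis, but the deposited values are not on the scale RMA gives: they are linear, hold 39 values at 0 and have array medians between 10.9 and 66.8. Their scaling between arrays is not given in the sources used here. Values were floored at 0.1 and taken as log2, with no further normalization. All 45101 probe sets were fitted with limma 3.58.1 (R 4.3.3), with the gland as a block for the compartments and groups within a compartment for exposures and genotype, and p-values were adjusted by Benjamini-Hochberg over all probe sets. Each SE from limma combines the gene's own variance with one shared over all probe sets of the fit. The fits were tested on simulated data. Members, gene lists and tests were chosen with earlier results of these data known. Genes named are the 8 brightest and 8 dimmest members, in each comparison up to 8 members called in a direction or else the 3 of smallest p, the paralogs with their parents, Rpl19, the extremes of slope and SD, those whose probe sets differ most, and the 10 genes most like the members' mean. Replicates within a group are glands of separate litters, while ERKO and wild type glands may share a litter, and their number limits the precision. Same-numbered stroma and epithelium arrays were taken as 1 gland, since each gland gave both compartments, although the labels do not say that the number marks the gland. Their deviations from group means had a correlation above 0.1 in 7 of 18 pairs (mean 0.08, against -0.00 for other pairs). Alternatives covered the scaling, floor, offset, filter, array weights, prior variance, block, choice of probe set and leaving out each array. Sequences are RefSeq's (GRCm38.p6), matched by Entrez gene ID. Protein sequences were not used here.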

Additional observations from a re-analysis of the deposited data

Results flagged for a closer look

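In groups of 6 or 9 arrays, the highest or lowest array was tested for a gap to its neighbour beyond Dixon's 95% limit, for 3 summaries of the 47 genes and 12 named members. Of 150 such groups 21 passed (14.0%). The limit would pass about 1 in 20 of independent, uniform groups. These groups share arrays and genes and pool genotypes or exposures, so the 14.0% cannot be read against that rate.

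The wild type stroma BPA array of replicate 3 had the lowest median of the members, 2681 (other wild type stroma arrays 4228 to 6536), a share of 2.39% (other BPA stroma arrays 1.85 to 2.03%) and a Rpl19 of 1592 (others 3713 to 5233). The wild type vehicle gland of replicate 2 gave the dimmest array of each compartment, with the members 8.50 log2 units above the array median in stroma (6.83 to 7.43 on other vehicle arrays, 6.83 to 7.52 on other wild type arrays) and 8.89 in epithelium (6.91 to 7.75 on other wild type arrays). On its stroma array Rpl7l1 stood at 23.7 (at least 130.4 on every other vehicle or wild type stroma array) and Rps25 at 7.1 (185 to 821 and 185 to 680), and on its epithelium array Rps6 at 231 (479 to 783). Without this gland 5 members were called lower and 1, Rpl39l, higher in stroma than in epithelium.

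The wild type epithelium BPA array of replicate 1 had the highest median of the members among wild type epithelium, 6874 (others 5166 to 5888), and a Rpl39l of 68.3 (17.4 to 34.4). Rpl39l was also high on the ERKO epithelium vehicle array of replicate 2, at 74.3 (14.6 to 23.7). The wild type epithelium EE2 array of replicate 2 had a share of 2.37% (1.77 to 1.98%). Rpl7l1 was low on the ERKO stroma EE2 array of replicate 3, at 118 (263 to 427), and Rpl7 on the ERKO epithelium vehicle array of replicate 1, at 2812 (3854 to 4841). The 4 groups of Rps16 had high arrays of 3.9 (0.7 to 1.2), 0.6 (0.5 on every other array), 1.4 (0.3 to 0.5) and 10.9 (0.6 to 1.4), all at the bottom of the scale.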

How the results depend on the processing

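No alternative called a member in any exposure, genotype or interaction comparison, and the replicate block changed no call there (0 members for each). For the compartments, where 4 members were lower and 0 higher, quantile normalization gave 0 lower and 1 higher, centring on the array median 0 lower and 1 higher, 16 added 17 lower, a floor of 10 25 lower, a mean of at least 50 14 lower, the trended robust variance 23 lower and the mean over a gene's probe sets 8 lower. Without the replicate block 3 members were lower. Leaving out 1 array gave 2 to 7 lower (7 without either array of the ERKO vehicle gland of replicate 1, 2 without any of 10 glands) and 0 to 1 higher, since the block drops the other array of that gland. Without the 3 dimmest arrays, an alternative chosen after seeing the data, 5 were lower. Centring on the array median turned the differences of Rpl19 (0.0919), Rpl13a (0.38) and Rps9 (0.35) between compartments, of Rps6 (-0.0805) and Rpl19 (-0.51) for BPA in epithelium, and of Rpl19 (-0.28) for EE2 in epithelium. The median of the members minus that of all probe sets for BPA in epithelium was -0.45, and 0.0494 with quantile normalization. The cause was not tested. With the 75th percentile as brightness, r was -0.93 for the share in stroma and -0.96 for the level above the array median in epithelium. Without the 2 arrays farthest from the median, r in stroma was -0.66 for the level above the array median and -0.74 for the share, and in epithelium 0.80 for the level, -0.95 for the level above the array median and -0.735 for the share. Dim members limit the tests: 13 of 47 had a mean under 1000.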

Other observations

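The 109 probe sets annotated to several symbols, at least 1 of them in the family, were not used above. They had a median mean intensity of 5434 and a median difference of -0.21 between stroma and epithelium, with 102 of 109 below 0, 11 called lower and 1 higher. In the exposure and genotype comparisons 0 of them were called.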
